A study of Homo sapiens with 4 samples.

Results

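DDX5 peaks that lie beside a Fra-1 site without touching it were examined in the human line BT549, which comes from a breast cancer and is negative for oestrogen receptor alpha. They were chosen from the DDX5 peaks called over input DNA on chromosomes 1 to 22 and X. A peak was taken if it shared no base with any Fra-1 peak called over input and if its midpoint lay 5000 bp or less from the midpoint of the nearest one. The rule gave 1950 of 10762 DDX5 peaks, or 18.1%. Of the others, 6655 overlapped a Fra-1 peak and are called common DDX5 peaks below, and 2157 had no Fra-1 midpoint within 5000 bp and are called distant DDX5-only peaks. The 1950 were thus 47.5% of the 4107 DDX5-only peaks. With only the Fra-1 peaks at or above their median fold, the same rule gave 1416 peaks, or 17.8% of 7971 DDX5-only peaks. Common DDX5 peaks whose Fra-1 peaks were cut count as DDX5-only there, so the 1416 are not a part of the 1950.

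Fra-1 is a Fos-family protein that pairs with a Jun protein to form the transcription factor AP-1, which binds DNA directly, often at enhancers, and is linked to invasion in breast cancers without oestrogen receptor. DDX5, an RNA helicase of the DEAD-box family, unwinds RNA duplexes in splicing and microRNA processing. It has no sequence-specific DNA-binding domain of the kind found in AP-1, and it acts at chromatin as a coactivator that other proteins bring to DNA. Chromatin immunoprecipitation followed by sequencing (ChIP-seq) recovers the DNA crosslinked to a protein, whether the protein touches the DNA itself or is held there by a partner.

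The series sorts binding events into those of Fra-1, those of DDX5 and those shared. Its 4 libraries come from untreated cells: a Fra-1 ChIP, a DDX5 ChIP, a control ChIP with rabbit IgG and the input DNA, that is, sonicated chromatin that was not immunoprecipitated. Each antibody had its peaks called once over input and once over IgG. With 1 library per antibody in 1 cell line, no difference could be tested and none has a replicate check. Sequencing depths are unknown, since the lists hold no read totals. Shares carry 95% Clopper-Pearson (exact binomial) intervals. These cover counting error only, because neighbouring peaks share their libraries and are not independent. Positions are in hg19. No hg19 sequence or gene annotation was used here, so peaks are named by position and no gene, motif or sequence is given.

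The DDX5 enrichment of the chosen peaks was low and even. The fold enrichment, the authors' ratio of ChIP signal to the local input level, had a median of 3.97 and an interquartile range of 3.53 to 4.42, with a lowest value of 1.42 and a highest of 11.1. The pileup, which is the number of ChIP fragments stacked at the summit, had a median of 18 and a range of 11 to 202. Most of these peaks were therefore built from few fragments. Of the 1950, 195 (10.0%) reached 5-fold and 4 (0.205%) reached 8-fold, against a background of 2.30% of all DDX5 peaks at 8-fold or more. That share was 0.185% in distant and 3.59% in common DDX5 peaks. The rule used this list, so these values describe the peaks and support nothing further.

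Their fold had the same middle as that of the distant DDX5-only peaks. The median was 3.97 in both classes, and the interquartile range of the distant class was 3.53 to 4.39. Of the distant peaks, 9.60% reached 5-fold. Common DDX5 peaks had a median of 4.35, and 30.01% of them reached 5-fold. In width and input level the chosen peaks lay between the other classes. Their median width was 256.5 bp, against 237 bp for distant and 324 bp for common peaks. The median input level was 3.43, against 3.16 and 4.29. The input level cannot fall below a genome-wide floor, which is 2.68 in this list, and 19.4% of the chosen peaks, 35.4% of the distant and 11.5% of the common peaks lay within 0.01 of that floor. Input level and width thus differed between the classes together, and the part of the input level in the peak calls was not tested.

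**Figure D1:**
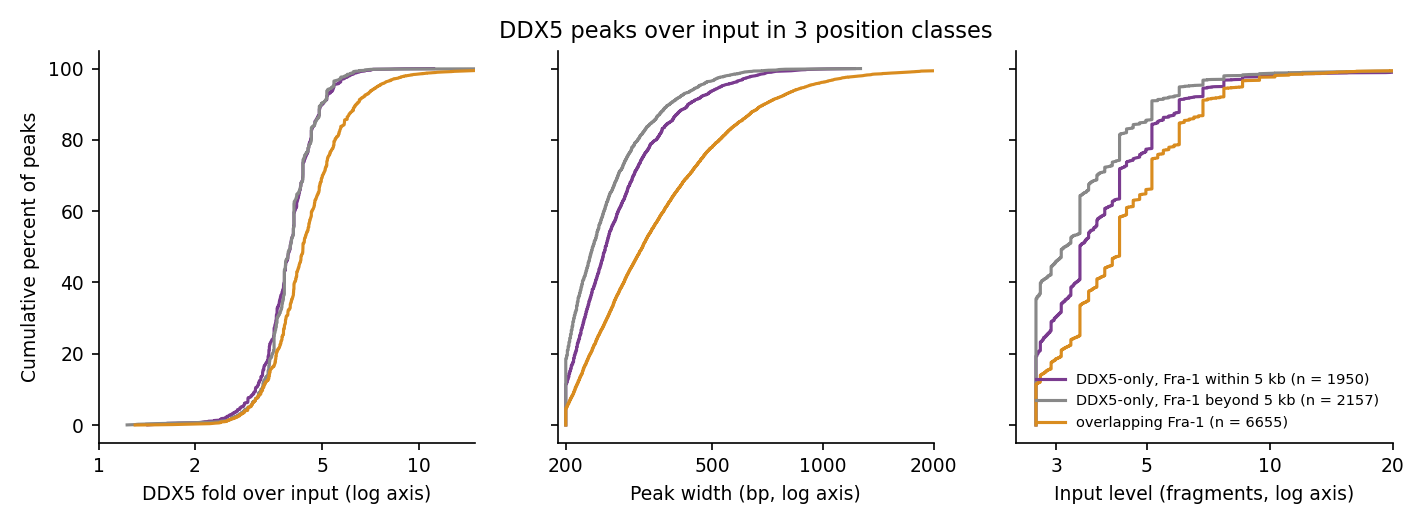
Cumulative percent of DDX5 peaks over input against DDX5 fold, peak width and input level (log axes) for the 1950 DDX5-only peaks within 5 kb of Fra-1, the 2157 beyond it and the 6655 that overlap Fra-1. The fold curves of both DDX5-only classes run together (median 3.97 in each), while in width and input level the peaks within 5 kb run between the other classes; a few peaks fall outside the plotted ranges.

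Most of the chosen peaks lay well inside the limit of the rule. The rule selects on this distance and no other positions were compared, so the distances are a description. The distance between midpoints had a median of 893.5 bp and an interquartile range of 549 to 1865 bp, and 1063 peaks (54.5%) lay within 1000 bp. The fullest 250 bp steps were those up to 500 bp, with 396 peaks, and up to 750 bp, with 408. From there the count dropped to 168 at 1000 to 1250 bp and 23 at 4750 to 5000 bp. Only 7 peaks lay within 250 bp, where overlap is hard to avoid because every peak is at least 200 bp wide. Between the edges of the peaks a median of 552.5 bases remained, and 225 peaks (11.5%) had 100 bases or fewer between them and Fra-1.

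**Figure D2:**
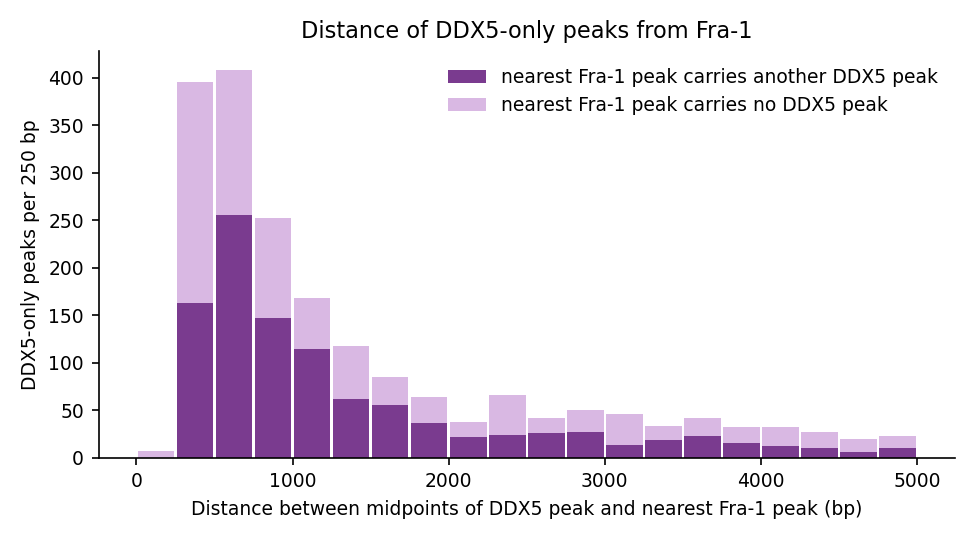
Number of DDX5-only peaks per 250 bp of distance between the midpoints of the DDX5 peak and its nearest Fra-1 peak, split by whether that Fra-1 peak carries another DDX5 peak. Counts are highest at 250 to 750 bp (396 and 408 peaks) and fall to 23 in the last step before 5000 bp.

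The 3 closest peaks show what the rule admits at its inner edge. The peak at chr15:43663349-43663562 lay 219 bp from its Fra-1 midpoint, with 12 bases between the peaks. Its DDX5 pileup was 14 over an input level of 2.68 (4.08-fold), and the Fra-1 peak beside it had a pileup of 13 (3.48-fold). The peak at chr2:74734262-74734497, also 219 bp away, was separated from Fra-1 by 1 base, with a DDX5 pileup of 16 (4.62-fold) and a Fra-1 pileup of 12 (3.23-fold). The peak at chr11:82867219-82867438, 221 bp away with 11 bases between, had pileups of 13 for DDX5 (3.74-fold) and 15 for Fra-1 (3.89-fold). At these 3 places both antibodies gave peaks of about the minimum width with few fragments, and which side of the overlap rule they fell on was decided by 1 to 12 bases.

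The outer limit fell in a sparse stretch. The 3 peaks just inside it lay 4987, 4997 and 4999.5 bp from Fra-1, at 2.49-fold, 4.06-fold and 3.26-fold for DDX5. The 3 just outside lay 5002, 5003 and 5005 bp away, at 3.26-fold, 4.78-fold and 4.08-fold. Another 372 DDX5-only peaks had their nearest Fra-1 midpoint between 5000 and 10000 bp.

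DDX5 fold did not follow the distance. The median fold was 3.97 in the 403 peaks up to 500 bp, 3.98 in the 660 at 500 to 1000 bp, 4.01 in the 435 at 1000 to 2000 bp and 3.84 in the 452 at 2000 to 5000 bp. Across the 1950 peaks the Spearman correlation of fold with distance was -0.0022, a description across peaks of the same libraries. The summit lay on the side of the Fra-1 neighbour in 1000 of the 1943 peaks whose summit was off the midpoint (51.5%, interval 49.2% to 53.7%). It did so in 49.0% (44.0% to 54.0%) of those up to 500 bp. No lean of the DDX5 summit towards Fra-1 was detectable, even in the peaks closest to it.

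The Fra-1 peaks next to these DDX5 peaks were weak ones. The nearest Fra-1 peak had a median of 4.11-fold over input and a median pileup of 22, against 5.38-fold and 30 for all 30405 Fra-1 peaks on the same chromosomes. Of the 1950 chosen peaks, 148 (7.59%, 6.45% to 8.86%) had a neighbour of at least 8-fold, a level reached by 29.6% of all Fra-1 peaks. Width and input level of the neighbours were close to those of the whole list. The medians were 300 against 317 bp for width and 4.27 against 4.45 for input level. The 1950 peaks had 1598 distinct Fra-1 neighbours. Of these, 1340 served 1 DDX5 peak, 198 served 2 and 60 served 3 or more, up to 7.

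**Figure D3:**
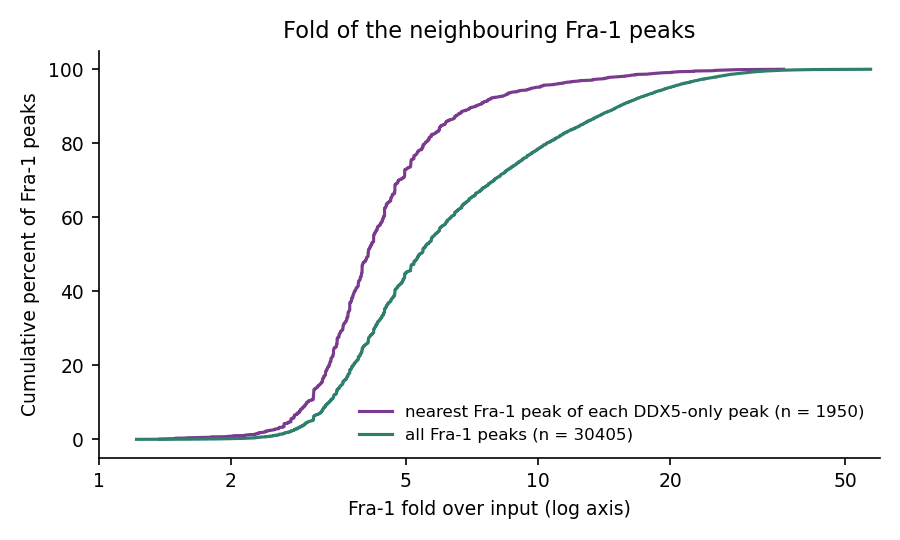
Cumulative percent of Fra-1 peaks against Fra-1 fold over input (log axis), for the nearest Fra-1 peak of each of the 1950 DDX5-only peaks and for all 30405 Fra-1 peaks. The curve of the neighbours lies to the left, with a median of 4.11-fold against 5.38-fold.

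Few of the neighbours were called again over IgG. IgG pulls down chromatin without a specific antibody, and calling over it is a separate comparison that the rule did not use. The nearest Fra-1 peak overlapped a Fra-1 peak called over IgG for 197 of the 1950 (10.1%, 8.80% to 11.5%). The background is 50.6% of the whole Fra-1 list. Among Fra-1 peaks that carry DDX5 it is 21.9% (20.9% to 22.9%). Of the 1045 neighbours that carried DDX5, counted once for each chosen peak, 67 (6.41%, 5.003% to 8.07%) were called. The share was 4.71% (2.86% to 7.26%) for DDX5 peaks up to 500 bp from Fra-1 and 17.3% (13.9% to 21.1%) for those at 2000 to 5000 bp. Calling over IgG moved with the Fra-1 fold over input. The called neighbours had a median of 9.03-fold and the others 3.98-fold, and the part of the fold in this difference was not tested. With only the Fra-1 peaks at or above their median fold, 42.9% of the 1416 peaks then chosen had a called neighbour, against a background of 84.8% of those Fra-1 peaks. The 1416 include former common DDX5 peaks.

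The neighbours often carried a DDX5 peak of their own. For 1045 of the 1950 (53.6%, 51.3% to 55.8%), the nearest Fra-1 peak overlapped another DDX5 peak. Such a chosen peak is called a flank of a common site, a name for nearness only. The background of the 53.6% is 21.7% of all Fra-1 peaks. By distance the share was 40.4% (35.6% to 45.4%) up to 500 bp, 61.1% (57.2% to 64.8%) at 500 to 1000 bp, 62.1% (57.3% to 66.6%) at 1000 to 2000 bp and 46.2% (41.6% to 51.0%) at 2000 to 5000 bp. Where several DDX5 peaks overlapped the Fra-1 neighbour, the one of highest fold was taken, which favours that side of the pair. Against this peak the flank was usually the smaller. The DDX5 peak on the Fra-1 neighbour had a median of 4.73-fold, a pileup of 23 and a width of 388 bp, against 3.997-fold, 18 and 262 bp for the chosen peak beside it, and its fold was the higher in 745 of 1045 pairs (71.3%). The rule used both lists over input, so the share of neighbours with DDX5 and this order are descriptive.

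Both properties divided the 1950 peaks into 4 kinds. The largest, 978 (50.2%), had a neighbour with DDX5 that was not called over IgG. Another 775 (39.7%) had a neighbour with neither, 130 (6.67%) had one called over IgG without DDX5, and 67 (3.44%) had one with both. In the same order their median DDX5 folds were 4.03, 3.94, 3.82 and 3.81. Member and neighbour input levels, both from the same input library, had a Spearman correlation of 0.58 across the 1950 pairs. For DDX5 fold and Fra-1 fold it was 0.11.

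Seen from the Fra-1 list, 2674 of 30405 peaks (8.79%) had one of the chosen DDX5 peaks within 5000 bp of their midpoint. Among the fifth of Fra-1 peaks with the lowest fold (median 3.34) the share was 15.9% (15.02% to 16.9%), and among the fifth with the highest fold (median 15.3) it was 2.57% (2.18% to 2.995%). It was 2.44% of Fra-1 peaks called over IgG and 15.3% of those not called. By both properties it was 1.78% for Fra-1 peaks called over IgG without DDX5, 8.85% for those called with DDX5, 9.91% for those not called without DDX5 and 25.6% for those not called with DDX5. The share for all Fra-1 peaks, 8.79%, was thus close to that of the called ones with DDX5. DDX5 peaks nearby that overlap another Fra-1 peak are not counted in these shares.

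**Figure D4:**
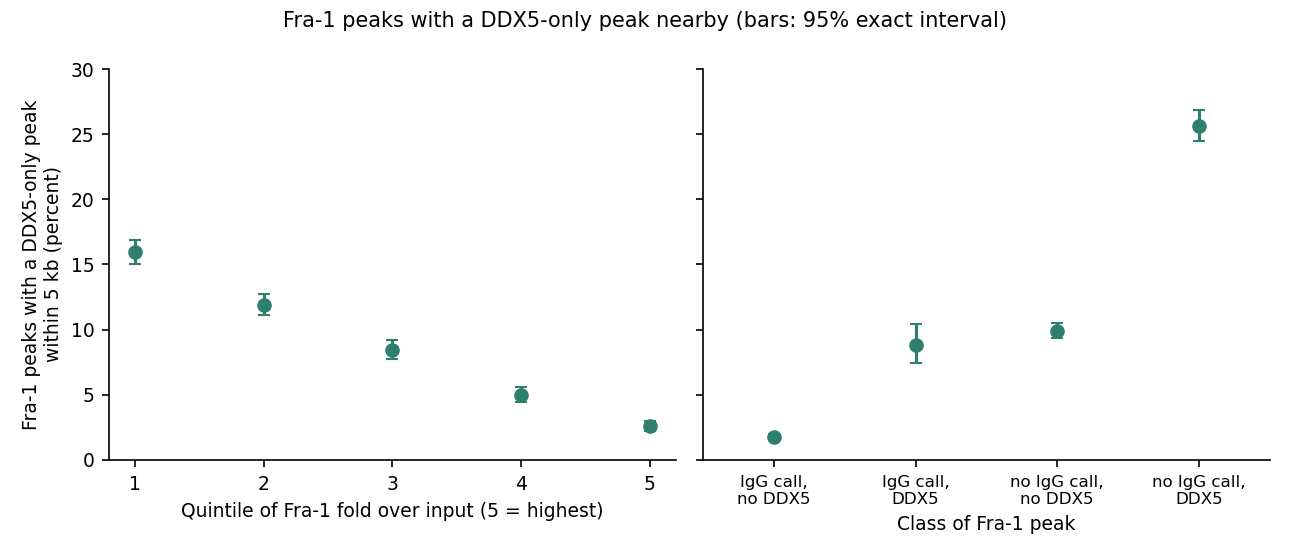
Percent of Fra-1 peaks with a DDX5-only peak within 5 kb, by quintile of Fra-1 fold (left) and by calling over IgG and overlap with DDX5 (right); bars are 95% exact intervals. The share goes from 15.9% to 2.57% over the quintiles and reaches 25.6% in Fra-1 peaks with DDX5 that were not called over IgG.

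Of the 1950 peaks, 4 (0.205%, 0.0559% to 0.524%) overlapped a DDX5 peak called over IgG. The background is 0.511% of all DDX5 peaks over input, within that interval. The share was 0.371% (0.160% to 0.729%) in distant and 0.646% (0.468% to 0.869%) in common DDX5 peaks. Only 1 of the 4 lay within 2500 bp of Fra-1 (0.0624% of 1602), and all 4 were among the 746 at or above the median DDX5 fold (0.536%). The 0.511% is of DDX5 peaks of any fold, so it is no background for the 0.536%. Of the 4, 2 lay on chromosome 14 on either side of the same Fra-1 peak. The one at chr14:64723817-64724220 had a DDX5 pileup of 40 over an input level of 2.68 (11.1-fold), the highest fold of the 1950, and 5.84-fold over IgG. The other, at chr14:64716177-64716515, had a pileup of 24 over 3.09 (6.11-fold) and 6.79-fold over IgG. The Fra-1 peak between them, 3988 and 3684.5 bp away, had a pileup of 14 and 3.73-fold and was not called over IgG, so the nearness of this pair to Fra-1 rests on 1 weak Fra-1 peak.

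The third peak also called over IgG, at chr19:19431620-19431859, flanked a common site. Its DDX5 pileup was 24 (5.05-fold over input, 4.45-fold over IgG), and a Fra-1 peak 435.5 bp away, at 3.08-fold, carried a DDX5 peak of 5.19-fold. The last, at chrX:153774837-153775127, had a pileup of 30 (4.42-fold over input, 4.07-fold over IgG). Its Fra-1 neighbour, 4665.5 bp away, was strong at a pileup of 97 and 16.8-fold, was called over IgG and carried no DDX5. It was the only one of the 4 with a neighbour called over IgG.

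None of the 1950 overlapped a Fra-1 peak called over IgG, which allows a share of up to 0.154%, against a background of 13.2% of all DDX5 peaks. The rule sets most of this, since 15715 of 16089 Fra-1 peaks over IgG on these chromosomes (97.7%) overlap one over input. Within 5000 bp of the midpoint, 372 (19.1%, 17.4% to 20.9%) had a Fra-1 peak called over IgG, against a background of 23.1% of all DDX5 peaks and 31.7% of common ones. By the list over IgG, then, most of the 1950 had no listed Fra-1 peak within the same distance.

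By −log10 q, the 10 leading peaks were led by that at 64723817 on chromosome 14. The next was at chrX:3733555-3733966, with a DDX5 pileup of 32 over an input level of 2.68 (8.97-fold). Its Fra-1 neighbour, 539.5 bp away, had a pileup of 17 (4.48-fold) and carried a DDX5 peak of 4.29-fold. Here the flank was stronger in DDX5 than the common site. The third, at chr15:90327163-90327893, had a pileup of 32 over 2.92 (8.42-fold), with a Fra-1 pileup of 15 (3.42-fold) 621.5 bp away. The peak at chr8:145313606-145314561, 956 bp wide, had a pileup of 29 (8.15-fold), with a Fra-1 pileup of 14 (3.73-fold) 1674.5 bp away. The other 6 lay at chr17:4269280-4269974 (6.89-fold), chr1:156186234-156186598 (3.38-fold), chr1:231557385-231558072 (5.98-fold), chr19:46386433-46386857 (6.79-fold), chr9:139734621-139735493 (7.15-fold) and chr1:36022714-36023015 (6.25-fold). For all 10 the Fra-1 neighbour stood at 3.22-fold to 4.60-fold and was not called over IgG, and for 9 of the 10 it carried another DDX5 peak. Of these 9, only the peak at 156186234 had a lower DDX5 fold than that other peak (3.38 against 3.57). These peaks were picked for a high −log10 q, and over all such pairs the chosen peak was usually the lower. Over all 1950 the neighbours had a median of 4.11-fold, 89.9% were not called over IgG and 53.6% carried another DDX5 peak, so neighbours of this fold that were not called over IgG are common to the whole set. The peak at 156186234 on chromosome 1 differs from the rest in its input level of 21.5, under a pileup of 75.

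Among the 197 peaks beside Fra-1 sites called over IgG, the 5 with the highest DDX5 fold were taken. The highest was at chr14:89017805-89018032, with a DDX5 pileup of 25 (6.36-fold) and a Fra-1 peak of 7.02-fold over input, 2.60-fold over IgG, 3435 bp away. On chromosome 19 a single Fra-1 peak at chr19:869423-870035, with a pileup of 68, 14.2-fold over input and 5.09-fold over IgG, had 2 of the leading 5 beside it. They were at 866699 to 867063 (6.13-fold, 2848 bp away) and at 869037 to 869348 (5.64-fold, 536.5 bp away), and the Fra-1 peak itself carried DDX5 at 4.29-fold. Both flanks thus exceeded the DDX5 peak on the Fra-1 site. At chr12:49659649-49659970 the order was the opposite. The flank had a pileup of 20 (5.71-fold) and was separated by 6 bases from a Fra-1 peak of 20.1-fold over input and 9.04-fold over IgG, which carried DDX5 at 9.44-fold with a pileup of 36. The last, at chr16:89985076-89985349 (5.98-fold), lay 3157 bp from a Fra-1 peak of 9.44-fold that carried no DDX5.

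Most of the chosen peaks had other DDX5 peaks nearby. Another DDX5 peak lay within 5000 bp of the midpoint for 1455 of them (74.6%, 72.6% to 76.5%), against a background of 44.7% of all DDX5 peaks. The share was 19.3% (17.6% to 21.0%) in distant DDX5-only and 44.2% (43.0% to 45.4%) in common peaks. For 1260 of the 1950 (64.6%, 62.4% to 66.7%) at least 1 DDX5 peak nearby was a common one. The background is 33.8% of all DDX5 peaks and 35.7% of common ones. For 812 (41.6%) at least 1 DDX5 peak nearby was another of the 1950. The nearest other DDX5 midpoint lay a median of 1094 bp away, against 36874 bp for distant and 10098.5 bp for common peaks. Only 495 (25.4%) had no other DDX5 peak within 5000 bp. As to Fra-1, 1026 (52.6%) had 1 Fra-1 midpoint within 5000 bp and 496 (25.4%) had 3 or more, up to 11, and 521 (26.7%) had Fra-1 on both sides. The rule requires at least 1, so these Fra-1 counts are a description. Common peaks overlap Fra-1, so the rule also largely sets which DDX5-only peaks have one nearby. Of the distant peaks, 3 of 2157 (0.139%) had a common peak within 5000 bp. The contrasts of DDX5 neighbours with distant peaks, and with all DDX5 peaks, which include them, are therefore descriptive too.

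Joined at gaps of at most 12500 bp, the 1950 peaks formed 1309 groups. Of these, 992 were single peaks, 281 held 2 to 4, and 36 held 5 or more, with 257 peaks (13.2%) in all. The fullest lay at chr22:46469093-46506869, with 20 of the peaks in 37.8 kb. Their DDX5 folds were 2.41 to 7.07 with a median of 4.08, their pileups 12 to 25, and their distances from Fra-1 458 to 3189 bp. The same stretch held 12 Fra-1 peaks of 2.74-fold to 5.72-fold, none called over IgG. It also held 11 common DDX5 peaks of 3.25-fold to 6.99-fold. Small peaks of both antibodies thus lay close together there, some overlapping and some apart. The median input level of the 20 was at the floor of 2.68.

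The next group, at chrX:153569665-153613848, held 14 of the peaks in 44.2 kb, at 2.52-fold to 5.70-fold. Of its 18 Fra-1 peaks, 2 were called over IgG, and the highest stood at 15.9-fold with a pileup of 83. The stretch also held 13 common DDX5 peaks. The third, at chr1:8916228-8937573, held 10 in 21.3 kb at 3.18-fold to 4.62-fold. Its 7 Fra-1 peaks included one of 18.3-fold, and 2 were called over IgG. It held 3 common DDX5 peaks.

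**Figure D5:**
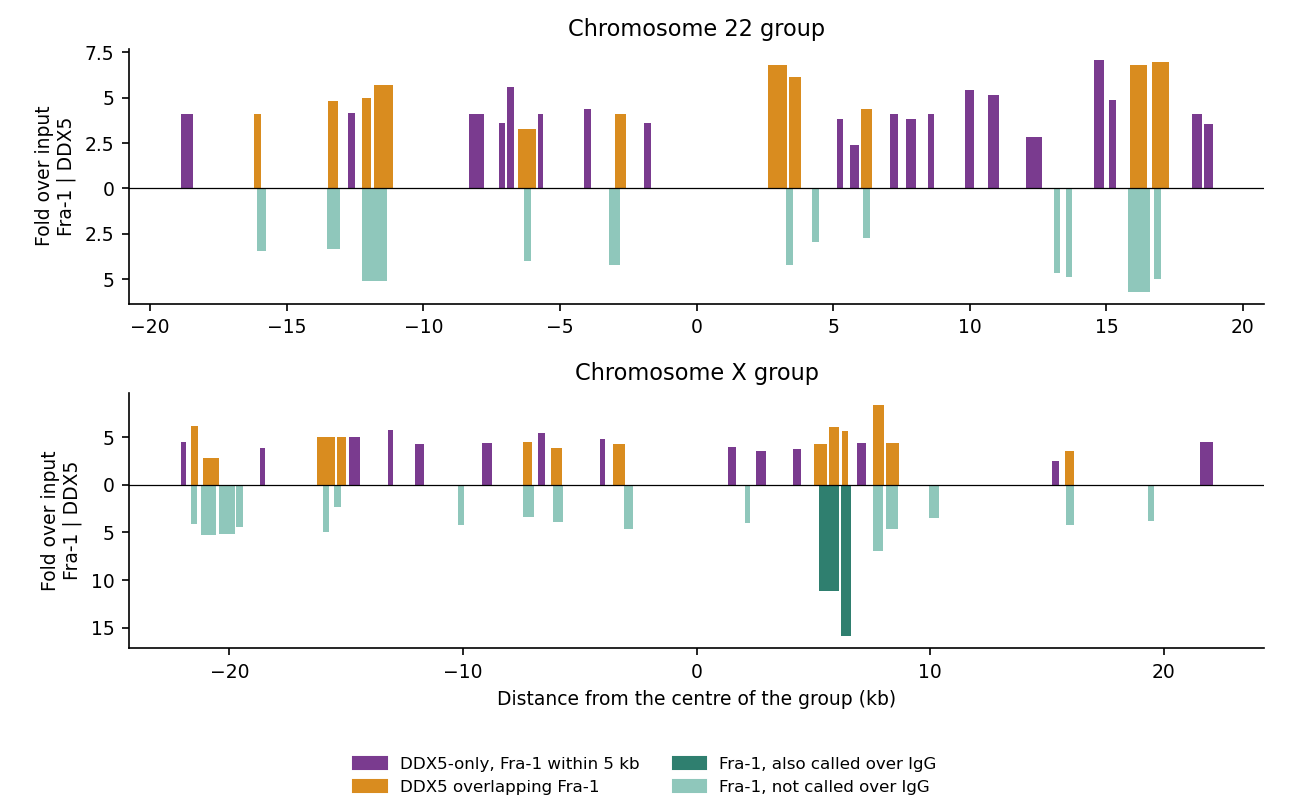
Peaks of the groups on chromosomes 22 and X along the distance from the group's centre (kb), with DDX5 fold over input drawn upwards and Fra-1 fold downwards, and bar width showing peak width, widened for the narrowest peaks. On chromosome 22 the Fra-1 peaks reach at most 5.72-fold and none was called over IgG. On X, 2 Fra-1 peaks called over IgG stand among 14 DDX5-only and 13 common DDX5 peaks.

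A small set lay where the input itself was very high. In 20 of the 1950 (1.03%, 0.628% to 1.58%) the input level exceeded 20, close to the background of 0.715% of all DDX5 peaks. Their median DDX5 fold was 1.74 and the highest 3.38. Of these, 8 were on X, and the 5 highest of all lay there at 58568017 to 58574121 and 61685097 to 61696881, on either side of the centromere. At chrX:61691692-61692036 the DDX5 pileup of 202 stood over an input level of 142 (1.42-fold), and the Fra-1 neighbour 1701 bp away had a pileup of 181 (1.59-fold). The large pileups of these 5 peaks came with large input levels, and their DDX5 folds were 1.42 to 1.58.

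The chosen peaks were spread over the chromosomes unlike the Fra-1 peaks. On chromosomes 19, 22, 17, 4 and 2 the other DDX5 classes differed from Fra-1 in the same direction. Chromosome 19 held 215 of them (11.0%, 9.67% to 12.501%), against 3.59% (3.39% to 3.81%) of Fra-1 peaks, 9.09% (7.91% to 10.4%) of distant DDX5-only peaks and 6.76% (6.17% to 7.39%) of common DDX5 peaks. Chromosome 22 held 3.85% (3.04% to 4.80%) against 1.49% of Fra-1 peaks, and chromosome 17 held 8.05% (6.88% to 9.35%) against 4.48%. Distant and common DDX5 peaks had 3.15% and 2.28% on chromosome 22, and 7.46% and 6.84% on chromosome 17. On chromosome 4 the order was the reverse, with 19 of the peaks (0.974%, 0.588% to 1.52%) against 4.13% of Fra-1 peaks, and on chromosome 2 it was 2.15% (1.56% to 2.90%) against 5.996%. Distant and common DDX5 peaks had 1.44% and 2.24% on chromosome 4, and 3.94% and 3.47% on chromosome 2. Chromosome 1 held the most, 273 (14.0%), against 11.5% of Fra-1 peaks, 11.3% of distant and 14.0% of common DDX5 peaks. The share of DDX5-only peaks that had Fra-1 within 5000 bp varied less, from 33.1% (24.98% to 42.0%) on chromosome 2 to 57.9% (48.0% to 67.4%) on X, and it was 52.3% (47.4% to 57.2%) on chromosome 19. All DDX5 classes, the common peaks included, thus had a larger share on chromosome 19, the most gene-dense human chromosome, than the Fra-1 list had.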

How the data were processed

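ChIP-seq of Fra-1 and DDX5 in BT549 cells was analysed from 4 deposited peak lists, each of 1 ChIP library against 1 control library (input or IgG), with nothing pooled. The submitters' processing notes name CASAVA 1.8, Bowtie 0.12.9, HOMER and hg19, without their roles. Which program called the peaks, and how, is not given in the sources used here.

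Per the file headers, the pileup is a signal, the depth of fragments at a summit, and the authors' fold enrichment is a ratio of ChIP to local control. The deposited lists also hold −log10 p and −log10 q values under 2 unreadable headers. They were told apart by assuming the column order of a MACS2 table, so the ranking by −log10 q rests on that assumption. The control level is (pileup + 1)/fold − 1, which is on the scale of the ChIP pileup and is not a count of control fragments. These values describe and rank peaks within a list. A deeper library or a quieter control lengthens a list, so a peak that is not listed does not show that binding is absent.

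Overlap means at least 1 shared bp, and distance runs between midpoints. A count of 0 was taken to allow 3 counts. No p-value was computed, since there is 1 library per antibody. The members and all comparisons were chosen with earlier results of these data known. Peaks named are the 10 with the highest −log10 q, the 5 with the highest fold beside a Fra-1 peak called over IgG, all called over IgG for DDX5, the 3 closest to Fra-1, the 3 on each side of the limit and the 3 fullest groups. Those of the highest input level were singled out after their values were seen. Alternatives were other distance limits, summit distances, stricter lists and a wider overlap rule. Planned analyses of genes, start sites, base content, motifs and gene lists need hg19 and were not run. The class code was tested on simulated data. The work used Python 3.11.15 with scipy 1.17.1, numpy 2.4.6, matplotlib 3.10.9 and pandas 2.3.3.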

Additional observations from a re-analysis of the deposited data

How the results depend on the processing

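Values moved outside the reported interval under 15 of 38 alternatives. The share of DDX5-only peaks near Fra-1, 47.5%, became 39.0% within 2500 bp, 56.5% within 10000 bp, 17.8% with Fra-1 peaks at or above their median fold only, 49.1% with DDX5 peaks at or above theirs, and 44.4% when gaps of at most 100 bp counted as overlap. Neighbours called over IgG, 10.1%, became 8.11% within 2500 bp, 12.53% within 10000 bp, 42.9% with the stricter Fra-1 list and 7.77% with the stricter DDX5 list. Neighbours with another DDX5 peak, 53.6%, became 63.4% and 40.5% with those lists, and the median DDX5 fold, 3.97, became 4.08 and 4.62. Peaks called over IgG for DDX5, 0.205%, became 0.536% with the stricter DDX5 list (4 of 746), and overlap with Fra-1 over IgG, 0%, became 1.41% with the stricter Fra-1 list (20 of 1416). Distance limits and thresholds change the members by construction. The stricter Fra-1 list also turns common DDX5 peaks into DDX5-only ones. For the other moves the cause was not tested. Counting each Fra-1 neighbour once, an alternative chosen after seeing the data, gave 10.9% called over IgG and 52.1% with DDX5. No paired analysis was possible because each antibody has 1 library and no test was run. Alternatives that need hg19 sequence or annotation were not run. Counts of 4 peaks over IgG leave wide intervals.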
